A study of Rattus norvegicus with 20 samples.

Results

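Vip, Adcyap1, Vgf, Cck and Reg3b encode peptides and small proteins that cells release. Their transcripts were followed here in rat dorsal root ganglia, the clusters of sensory neuron cell bodies beside the spinal cord, after sciatic nerve injury. The members were all probe sets annotated to 1 of these 5 genes alone in the platform's probe table, which gave 5 of 4736 genes and 7 of 8740 probe sets that are not array controls. Adcyap1 had 3 probe sets (M63006_at, rc_AI228407_s_at and X80290cds_s_at), and Vip (X02341cds_at), Vgf (M74223_at), Reg3b (M98049_s_at) and Cck (X01032_at) had 1 each. No probe set listed a member together with another gene.

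Total RNA of ganglia from the side of surgery was read on 20 Affymetrix arrays in 8 groups. Chronic constriction injury (CCI), in which the sciatic nerve is loosely tied, was sampled at 14 days (n = 3) and 21 days (n = 3). The Seltzer model, whose samples are described as sciatic nerve transection surgery, had 2 arrays at 14 days, 3 at 21 days and 2 at 50 days, and sham-operated rats had the same numbers. The sources used here do not give strain, sex, age, genotype, spinal level or pooling of animals. Nothing states that the replicates were separate animals, so p-values measure the spread between these arrays, which may be technical. In whole ganglia, fewer cells of a type and less RNA per cell cannot be told apart.

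Vip (vasoactive intestinal peptide) and the product of Adcyap1, PACAP, are related peptides that share receptors and raise cyclic AMP in the cells they reach. Vgf is a precursor first known as a gene switched on by nerve growth factor, and its fragments leave neurons from dense-core vesicles. Cck encodes cholecystokinin, a peptide of gut and brain, and Reg3b encodes a secreted lectin first known from the inflamed pancreas. In sensory neurons Vip, Adcyap1 and Vgf are known as genes that respond when a peripheral axon is cut, and Reg3b is known for induction through STAT3 in several tissues.

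The RefSeq sequence just upstream of the annotated gene start (GRCr8) is shown for the 3 genes with a match to a searched motif, because cyclic AMP acts through CREB at the cyclic AMP response element (CRE) and STAT3 binds its own motif. Of the 5 genes, 4 had an entry, each read over 250 bases on the gene's strand, and Cck had none. The motifs searched on both strands were TGACGTCA (CRE), its core TGACG, which also lies inside the full CRE, TTCNNNGAA (STAT) and TGANTCA (AP-1). Capitals mark the CRE in Vgf (chr12:25277021-25277270, minus strand), the CRE core in Vip (chr1:44470230-44470479, plus strand) and the STAT motif in Reg3b (chr4:112419526-112419775, plus strand).
Vgf: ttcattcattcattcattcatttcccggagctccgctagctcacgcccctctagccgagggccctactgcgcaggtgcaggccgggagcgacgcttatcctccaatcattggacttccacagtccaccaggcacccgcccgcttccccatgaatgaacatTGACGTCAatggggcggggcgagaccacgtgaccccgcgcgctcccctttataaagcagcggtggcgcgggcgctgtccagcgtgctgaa
Vip: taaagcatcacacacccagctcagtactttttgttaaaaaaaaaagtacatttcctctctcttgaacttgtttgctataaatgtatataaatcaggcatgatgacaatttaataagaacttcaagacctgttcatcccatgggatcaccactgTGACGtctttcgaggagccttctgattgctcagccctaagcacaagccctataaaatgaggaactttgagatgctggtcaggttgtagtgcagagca
Reg3b: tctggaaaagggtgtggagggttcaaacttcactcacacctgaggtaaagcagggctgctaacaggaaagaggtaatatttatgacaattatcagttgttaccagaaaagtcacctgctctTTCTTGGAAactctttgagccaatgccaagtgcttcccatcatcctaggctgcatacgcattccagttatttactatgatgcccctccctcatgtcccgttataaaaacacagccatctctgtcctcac

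The full CRE lay in the Vgf window, 90 to 83 bases before the gene start, and was present in 1.59% of 33469 windows of the same length. Its core lay in the Vip window 97 to 93 bases before the start, and 18.2% of windows held that core. The STAT motif lay in the Reg3b window 129 to 121 bases before the start, and 7.67% of windows held it. No member's window held the AP-1 motif, which 6.34% of windows held, and the Adcyap1 window held none of the searched motifs. These matches describe the letters alone.

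Values are deposited intensities on a linear scale, many of them below 0, and each array's negative values were used as a gauge of its noise. A probe set was above background where its value was larger than 95% of those negative values with the sign dropped. On 17 arrays the background level was 169 to 326, CCI 21-day replicate 1 had 499, and Seltzer 50-day replicates 1 and 2 had 766 and 599. The Seltzer 50-day arrays also stood apart in the ratio of 3′ to middle GAPDH control probe sets, which was 8.89 and 5.10 there and at most 2.85 on the others. Their actin ratio of 3′ to 5′ was also the highest (9.88 and 3.94, at most 2.40 elsewhere), their GAPDH ratio of 3′ to 5′ the lowest (1.16 and 1.29, at least 1.68 elsewhere), and their actin ratio of 3′ to middle (1.22 and 1.03) lay among the others, so the 4 ratios did not point one way. Of 16 listed sensory neuron markers 14 were measured, each above background on at least 1 array. Of the 8740 probe sets, 5922 (67.8%) were above background on no array.

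Vgf read higher on every injured array than on any sham array at 14 and 21 days, overlapped sham at 50 days, and was above background on 17 of 20 arrays. At 14 days its intensity was 827, 840.0 and 943 on the CCI arrays, 748 and 903 on the Seltzer arrays, and 310 and 266 on the sham arrays. At 21 days it was 674, 1103 and 1373 after CCI, 641, 748 and 772 after the Seltzer injury, and 262, 296 and 545 in sham ganglia. Neither injured group overlapped sham at either day, so all 11 injured arrays of 14 and 21 days lay above all 5 sham arrays of those days. At 50 days Vgf read 336 and 399 after the Seltzer injury and 391 and 399 in sham ganglia, and these groups overlapped. Both Seltzer values lay below the background level of their arrays (766 and 599), while both sham values lay above theirs (326 and 277). The overlap therefore does not show Vgf back at the sham level.

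Ordered by mean intensity, Vgf was highest in CCI at 21 days (1050.0 ± 353 SD, n = 3), then CCI at 14 days (870.1 ± 63.8, n = 3), Seltzer at 14 days (825 ± 109.9, n = 2) and Seltzer at 21 days (720.2 ± 70.1, n = 3). The remaining means, 395 ± 5.49 (sham, 50 days, n = 2), 368 ± 155 (sham, 21 days, n = 3), 367 ± 44.7 (Seltzer, 50 days, n = 2) and 288 ± 30.9 (sham, 14 days, n = 2), formed the lower end. Neighbours in this order overlapped, except that Seltzer at 21 days lay wholly above sham at 50 days and Seltzer at 50 days wholly above sham at 14 days. The plot of Vgf by array shows the gap between both ends of this order.

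**Figure D1:**
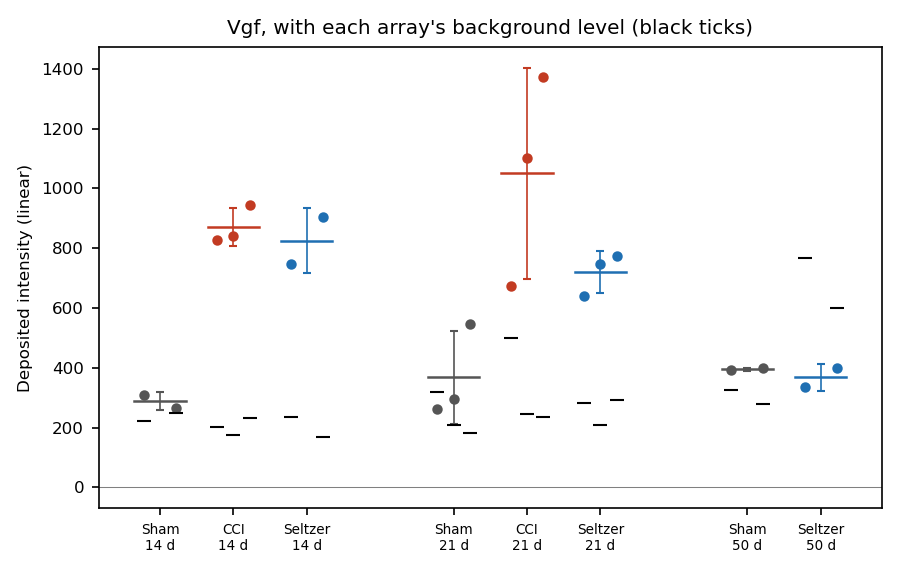
Deposited intensity of Vgf (linear axis) on each of 20 arrays by surgery and day. Points are arrays, horizontal lines the group mean, error bars ± 1 SD and black ticks each array's background level; injured arrays of 14 and 21 days sit between 641 and 1373 and their sham arrays between 262 and 545, while the 50-day groups overlap. Both Seltzer 50-day points lie below their background level.

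Against sham of the same day, Vgf was 3.03-fold higher after CCI at 14 days (log2 change 1.54, SE 0.29, adjusted p = 0.00969 by limma) and 2.89-fold higher at 21 days (1.49, SE 0.26, adjusted p = 0.0155). Adjusted p-values here and below are limma's with Benjamini-Hochberg adjustment over all 8740 probe sets, and a change is called where it is under 0.05. The 14-day call was lost without either sham array of that day (adjusted p = 0.0587 and 0.0976), and the 21-day call without CCI replicate 3 (adjusted p = 0.0522) or sham replicate 1 or 2 of that day (adjusted p = 0.0681 and 0.0630), with quantile normalization (0.0513), median centring (0.147) and only the groups compared (0.699). After the Seltzer injury the Vgf change was 1.47 at 14 days (adjusted p = 0.153, and 0.0311 with the replicate number as a block), 1.01 at 21 days (adjusted p = 0.194) and -0.10 at 50 days (adjusted p = 1), none of them called. Averaged over the days, Vgf rose in both models, by 1.52 after CCI (adjusted p = 0.000737, 6 of 6 arrays above the sham mean of their day) and by 0.79 after the Seltzer injury (adjusted p = 0.0222, 6 of 7 arrays). The Seltzer mean lost its call without Seltzer 14-day replicate 2, sham 14-day replicate 2 or either sham 50-day array (adjusted p = 0.0738, 0.0638, 0.0516 and 0.0539), with quantile normalization (0.0851) and median centring (0.139).

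Vip and Reg3b read higher in every injured ganglion sample than in any sham sample, yet neither was above background on any of the 20 arrays. No fold is therefore given for them, and their log2 changes depend on the 16 added before the log2. Vip read 61.8, 61.2 and 68.5 in CCI ganglia at 14 days and 167, 61.0 and 56.2 at 21 days. After the Seltzer injury it read 42.4 and 39.5 at 14 days, 96.6, 48.3 and 46.2 at 21 days, and 88.1 and 55.4 at 50 days. Sham arrays read 7.74 and 8.62 at 14 days, -35.0, 17.0 and 0.122 at 21 days, and 20.2 and -6.53 at 50 days. The lowest injured array (39.5) thus lay above the highest sham array (20.2), with no overlap at any day. Group means ran from 94.8 ± 62.7 (CCI, 21 days, n = 3) through 71.7 ± 23.1 (Seltzer, 50 days, n = 2), 63.8 ± 4.04 (CCI, 14 days, n = 3), 63.7 ± 28.5 (Seltzer, 21 days, n = 3) and 41.0 ± 2.05 (Seltzer, 14 days, n = 2) to the sham groups (-5.97 to 8.18), and the neighbours overlapped except Seltzer at 14 days, which lay apart on both sides. The highest Vip value came from CCI 21-day replicate 1, the array whose background level was 499.

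Reg3b read 144, 137 and 189 in CCI ganglia at 14 days and 110.3, 192 and 192 at 21 days. Seltzer ganglia gave 118 and 124 at 14 days, 81.1, 115 and 89.5 at 21 days, and 58.1 and 51.9 at 50 days. In sham ganglia Reg3b read 29.3 and 22.8 at 14 days, -14.8, 47.9 and 33.8 at 21 days, and 47.7 and 32.3 at 50 days. Every injured array again lay above every sham array, the nearest values being 51.9 at 50 days after the Seltzer injury and 47.9 in a sham array. Group means descended from CCI at 21 days (165 ± 47.2, n = 3) and 14 days (157 ± 28.8, n = 3) through the Seltzer groups of 14 days (121 ± 4.56, n = 2), of 21 days (95.3 ± 17.9, n = 3) and of 50 days (55.0 ± 4.44, n = 2) to the sham groups (22.3 to 40.0). The 2 CCI groups overlapped in this order, as did sham at 14 and 21 days, and the other neighbours did not.

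**Figure D2:**
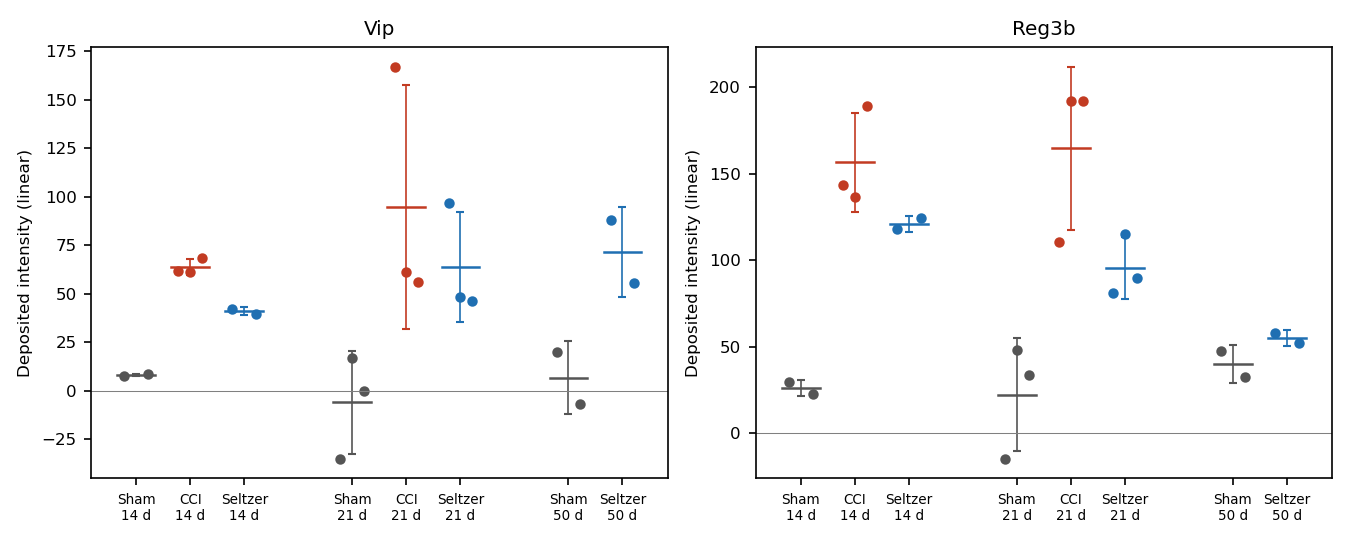
Deposited intensity of Vip (left) and Reg3b (right) on each of 20 arrays, linear axes, by surgery and day. Points are arrays, horizontal lines group means and error bars ± 1 SD; every injured point lies above every sham point (39.5 against 20.2 for Vip, 51.9 against 47.9 for Reg3b), although no array had either probe set above its background level.

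This complete separation of 13 injured from 7 sham arrays held for 9 of 8740 probe sets (0.103%). They were Vip and Reg3b, the neuropeptides Npy and Gal, the injury transcription factor Atf3, the growth cone protein Gap43, cathepsin S (Ctss), the metalloprotease Mmp16 and the phosphatase Ptpro. Restricted to 14 and 21 days, Vgf joined them among 20 probe sets (0.229%). Mmp16, like Vip and Reg3b, was above background on no array. Ptpro was above it on 5 arrays, and its lowest injured value was 115 against a highest sham value of 112. The separation depends on how the arrays are made comparable. Ranked within each array, Vip still lay higher in every injured array (percentile 45.3 to 64.8 of all non-control probe sets) than in any sham array (20.1 to 41.0), whereas Reg3b in Seltzer 50-day ganglia (48.6 to 49.7) fell inside the sham range (25.9 to 51.5).

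Vip rose by 2.30 on the log2 scale after CCI at 21 days (SE 0.41, adjusted p = 0.0168, 1.13 to 4.95 over 17 alternatives) and by 1.84 after the Seltzer injury at 50 days (SE 0.50, adjusted p = 0.0256). Its change missed the threshold at 1.72 after CCI at 14 days (adjusted p = 0.0717, called in 5 of 16 alternatives, among them quantile normalization at 0.0117 and all sham arrays as 1 control at 0.0156), at 1.24 after the Seltzer injury at 14 days (adjusted p = 1) and at 1.91 at 21 days (adjusted p = 0.0880). As means over the days it rose by 2.01 after CCI (adjusted p = 0.0027) and by 1.66 after the Seltzer injury (adjusted p = 0.00355), with all 6 and all 7 arrays above the sham mean of their day. Where the Seltzer 50-day arrays are left out, here and below, the Seltzer mean becomes the mean of 14 and 21 days. The 21-day CCI call was lost without CCI replicate 1 (adjusted p = 0.0536) or sham replicate 1 or 3 of that day (adjusted p = 0.0767 and 0.0734), with a pseudocount of 1 (0.0665) and with only the groups compared (0.534). The 50-day Seltzer call was lost without Seltzer replicate 1 or sham replicate 2 of that day (adjusted p = 0.149 and 0.230), with a pseudocount of 1 (0.0734) and with only the groups compared (0.215), and the Seltzer mean without both Seltzer 50-day arrays (adjusted p = 0.0890).

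Reg3b rose by 2.03 after CCI at 14 days (SE 0.44, adjusted p = 0.0252) and by 2.25 at 21 days (SE 0.39, adjusted p = 0.0155). Its Seltzer changes of 1.71 at 14 days (adjusted p = 0.536), 1.58 at 21 days (adjusted p = 0.168) and 0.35 at 50 days (adjusted p = 0.767) were not called, while the mean over the 3 days was (1.21, adjusted p = 0.0209). The mean CCI change was 2.14 (adjusted p = 0.00131), and adding 1 in place of 16 before the log2 ended that call (adjusted p = 0.0616). The 14-day CCI call was lost without any 1 of its 5 arrays (adjusted p from 0.0614 to 0.172), with a pseudocount of 1 (0.464) and with median centring (0.0541). The 21-day call was lost without CCI replicate 3 (adjusted p = 0.0537), with a pseudocount of 1 (0.164), quantile normalization (0.0626), median centring (0.0582) and only the groups compared (0.707). The Seltzer mean lost its call without Seltzer 14-day replicate 2, sham 14-day replicate 2 or sham 50-day replicate 2 (adjusted p = 0.0595, 0.0591 and 0.0627), without both Seltzer 50-day arrays (0.0786), with a pseudocount of 1 (0.175), median centring (0.0733) and only the groups compared (0.0528). The other measured members of the Reg family, Reg1a, Reg3a and Reg3g, were above background on no array, and 0 of 3 was called in either mean contrast. Reg3g was called at 1 day, higher after the Seltzer injury at 50 days (2.64, adjusted p = 0.00897). Probe sets whose names end in _s_at, as that of Reg3b does, can share probes with related sequences, and sharing among Reg genes was not tested.

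Adcyap1 was measured by 3 probe sets that differed from each other. On rc_AI228407_s_at it read 476, 527 and 522 after CCI at 14 days, 683 and 739 after the Seltzer injury, and 261 and 218 in sham ganglia. At 21 days the values were 396, 491 and 366 after CCI, 315, 313 and 184 after the Seltzer injury, and 152, 113 and 116 in sham ganglia. At 50 days it read 248 and 169 after the Seltzer injury and 147 and 133 in sham ganglia, all below the background level of their arrays. Injured arrays lay above sham arrays at every day, and the sham arrays themselves were higher at 14 days than at 21 or 50 days without overlap (F test over the sham days, adjusted p = 0.0627). This probe set was above background on 10 of 20 arrays, and on no sham array of 21 or 50 days.

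On this probe set Adcyap1 rose 2.13-fold after CCI at 14 days (1.04, SE 0.22, adjusted p = 0.0204), at least 1.81-fold after CCI at 21 days (1.60, SE 0.20, adjusted p = 0.000808) and 2.98-fold after the Seltzer injury at 14 days (1.51, SE 0.24, adjusted p = 0.0222). A fold is written "at least" where no array of the dimmer group was above background, and is then taken against the background level. The Seltzer changes at 21 days (0.98, adjusted p = 0.0613) and 50 days (0.51, adjusted p = 0.179) were not called. Both mean changes were, at 1.32 after CCI (SE 0.15, adjusted p = 0.00023, 6 of 6 arrays) and 1.00 after the Seltzer injury (SE 0.13, adjusted p = 0.000611, 7 of 7 arrays). The 14-day CCI call was lost without CCI replicate 2 or 3 or either sham array of that day (adjusted p from 0.0708 to 0.184), with median centring (0.0508) and without the dimmest probe sets (0.0592), and the 21-day CCI call with only the groups compared (0.0988). The 14-day Seltzer call was lost without replicate 2 of either group (adjusted p = 0.154 and 0.131), with median centring (0.116), without the dimmest probe sets (0.0865) and with only the groups compared (0.253).

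On M63006_at, Adcyap1 read 359, 360.1 and 439 after CCI at 14 days, 553 and 510.4 after the Seltzer injury, and 241 and 339 in sham ganglia. At 21 days it read 217, 367 and 349.8 after CCI, 234, 366 and 360.0 after the Seltzer injury, and 289, 352 and 394 in sham ganglia. At 50 days it read 456 and 403 after the Seltzer injury and 166 and 239 in sham ganglia, all below the background level of their arrays. Injured arrays were higher without overlap at 14 and 50 days and lay among the sham arrays at 21 days. At single days the Seltzer change at 50 days alone was called (1.05, SE 0.28, adjusted p = 0.0223), on the arrays with the unusual control ratios and high background, whose part in this result was not tested. That call was lost without either Seltzer array (adjusted p = 0.114 and 0.0583) or sham replicate 1 (adjusted p = 0.161). It was also lost with quantile normalization (0.62, adjusted p = 0.335), median centring (0.71, adjusted p = 0.279), all sham arrays as 1 control (0.59, adjusted p = 0.118) and only the groups compared (adjusted p = 0.133). The Seltzer mean (0.59, SE 0.15, adjusted p = 0.0414) lost its call in 16 of 26 alternatives. Among these was the mean of 14 and 21 days, without the Seltzer 50-day arrays (0.37, adjusted p = 0.995). The CCI mean was 0.12 (95% interval -0.24 to 0.49, adjusted p = 0.913).

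On X80290cds_s_at, above background on 6 of 20 arrays, Adcyap1 read 282, 287 and 346 after CCI at 14 days, 214 and 222 after the Seltzer injury, and 142 and 146 in sham ganglia. At 21 days it read 462, 268 and 316 after CCI, 76.9, 185 and 218 after the Seltzer injury, and 43.0, 152 and 166 in sham ganglia. At 50 days it read 149.98 and 214 after the Seltzer injury and 185 and 211 in sham ganglia. CCI arrays lay above sham arrays at both days, and Seltzer arrays did so at 14 days. The mean CCI change of 1.27 (at least 1.38-fold, SE 0.30) missed the threshold with an adjusted p of 0.0503 and was called in 7 of 23 alternatives, although all 6 arrays lay above the sham mean of their day, and the mean Seltzer change was 0.28 (adjusted p = 0.70).

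**Figure D3:**
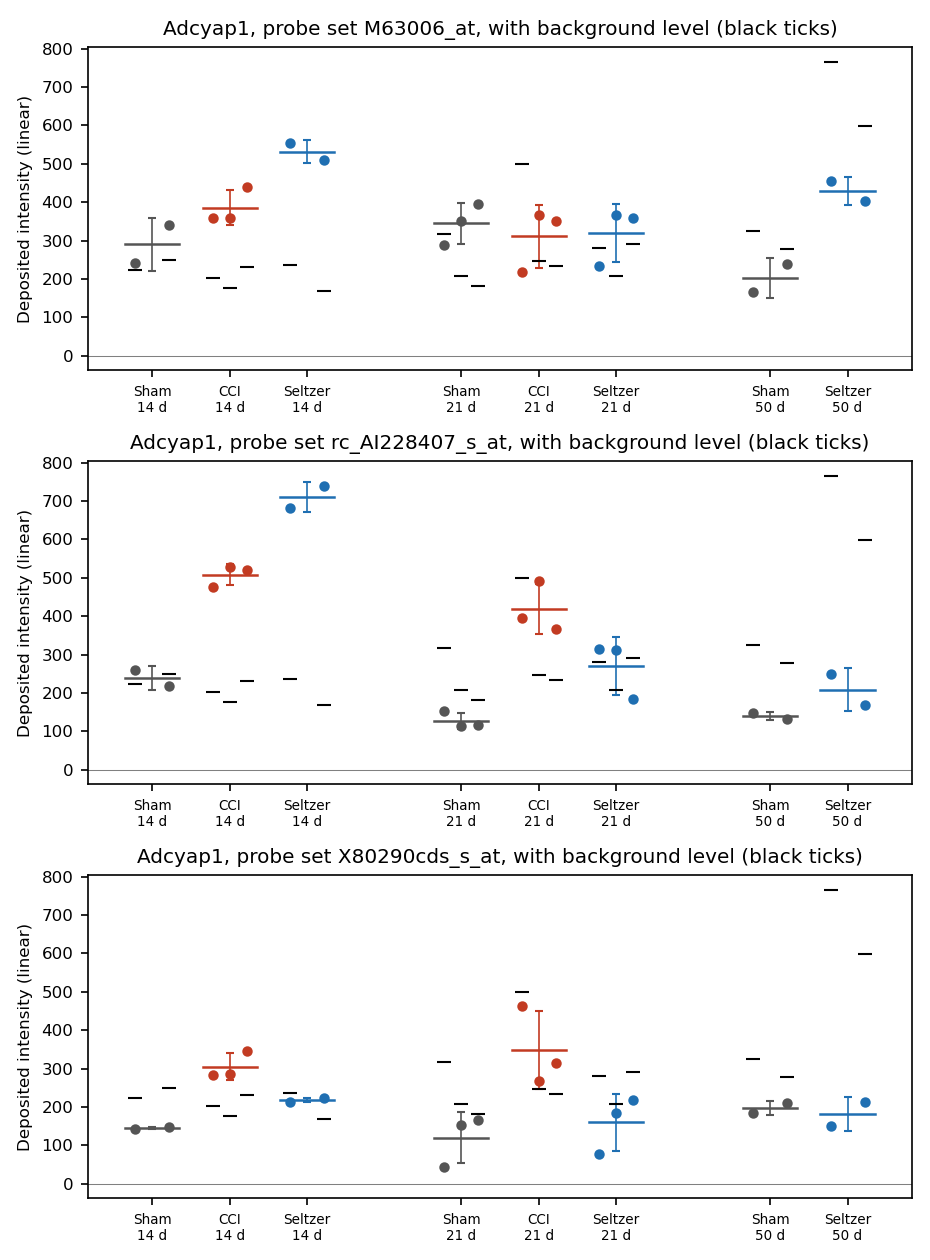
Deposited intensity of the 3 Adcyap1 probe sets (linear axes, 1 panel each) on each of 20 arrays by surgery and day. Points are arrays, horizontal lines group means, error bars ± 1 SD and black ticks each array's background level; rc_AI228407_s_at separates injured from sham at each day, while M63006_at does not at 21 days. At 50 days all 3 probe sets lie below the background level on every array.

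Across the 20 arrays, log2 values of M63006_at and rc_AI228407_s_at correlated at r = 0.428, those of rc_AI228407_s_at and X80290cds_s_at at 0.480, and those of M63006_at and X80290cds_s_at at 0.179. Without the 2 Seltzer 50-day arrays these were 0.501, 0.496 and 0.212. The arrays share their groups and their noise, so the correlations describe how far the probe sets of 1 gene moved together and carry no test. The sources used here do not give which transcripts each probe set reads. The names of rc_AI228407_s_at and X80290cds_s_at also end in _s_at, and sharing of their probes with other sequences was not tested.

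Cck was below 0 on all 20 arrays, from -143 on Seltzer 14-day replicate 2 to -791 on Seltzer 50-day replicate 1, as were 615 probe sets (7.04%). It ranged from -60.9% to -202% of the background level of the same array. These data therefore give no level of Cck in the ganglia and no change after injury. The 3 CCI arrays at 14 days (-191 to -148) lay above both sham arrays (-193 and -192), a difference among values that all stand for no measured signal.

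**Figure D4:**
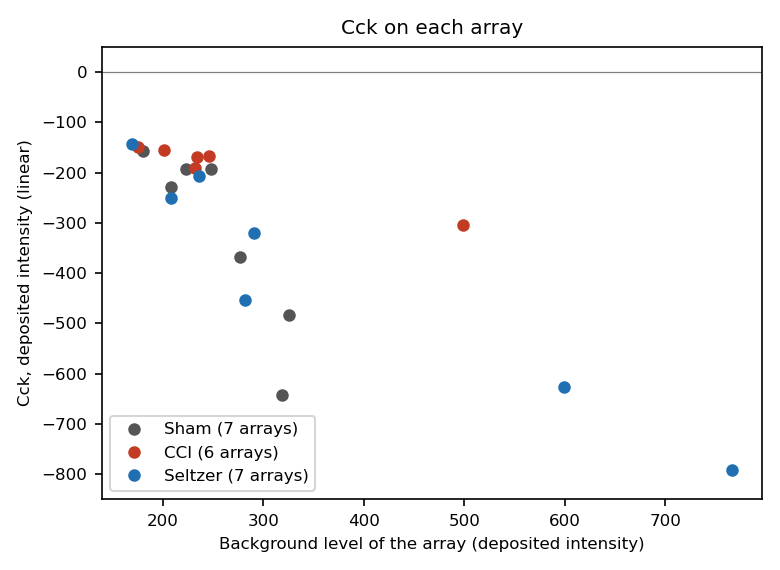
Deposited intensity of Cck (linear axis) against the background level of the same array, 1 point for each of 20 arrays coloured by surgery. All points lie below 0, from -143 to -791, and the lowest belongs to the array with the highest background level, 766.

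Counted over the 7 member probe sets, 3 rose after CCI at 14 days (Vgf, Reg3b and Adcyap1 rc_AI228407_s_at), where 1.35% of all probe sets were called higher and 1.43% lower. After CCI at 21 days 4 rose, the same 3 with Vip, against 0.538% of all probe sets called higher and 0.389% lower. The same 4 were called in the CCI mean, against 1.19% higher and 1.1% lower. The members' median change was 1.04, 1.55 and 1.32 in these 3 contrasts, and that of all probe sets was 0. Injured arrays lay wholly above sham arrays for 7 members at 14 days, Cck among them, where 18.1% of all probe sets did so, and for 5 at 21 days (6.57%).

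After the Seltzer injury 1 member rose at 14 days (Adcyap1 rc_AI228407_s_at), against 0.137% of all probe sets called higher and 0.0686% lower. At 21 days limma called 0 members, against 0.263% higher and 0.114% lower, with 4 at an unadjusted p under 0.05 and medians of 0.98 for the members and 0 for all probe sets. At 50 days 2 rose, Vip and Adcyap1 M63006_at, on arrays where 8.72% of all probe sets were called higher and 7.2% lower. The Seltzer mean had 5 members higher (Vip, Reg3b, Vgf, Adcyap1 rc_AI228407_s_at and M63006_at) against 1.92% higher and 2.46% lower. Without the Seltzer 50-day arrays, as the mean of 14 and 21 days, it had 2 of them, Vgf and rc_AI228407_s_at. The members' median change in the mean of 14, 21 and 50 days was 0.79, against 0.03 for all probe sets. Members without overlap above sham numbered 6 at 14 days (17.9% of all probe sets), 4 at 21 days (4.97%) and 4 at 50 days (33.4%). The 4 at 50 days were below background on every array of that day, where Cck lay wholly below sham.

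**Figure D5:**
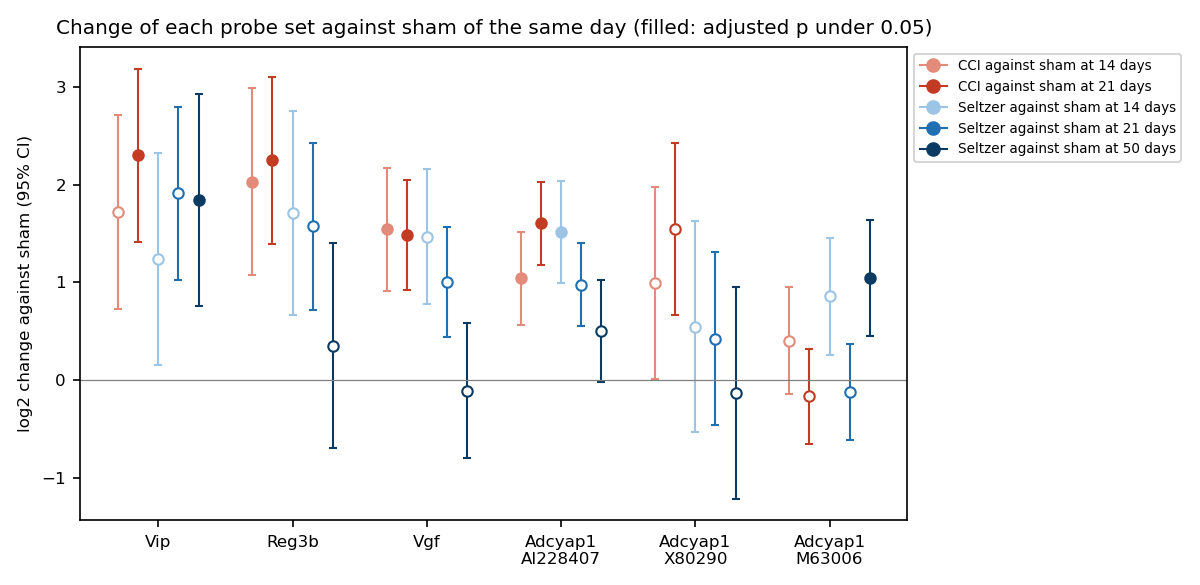
Log2 change of 6 member probe sets against sham of the same day, 1 point per injured group, with 95% confidence intervals from limma. Filled points have an adjusted p under 0.05. Changes of Vip, Reg3b, Vgf and Adcyap1 rc_AI228407_s_at lie between 0.98 and 2.30 at 14 and 21 days. At 50 days Vgf is at -0.10, Reg3b at 0.35, rc_AI228407_s_at at 0.51 and Vip at 1.84. Vip and Reg3b were above background on no array, and Vgf and rc_AI228407_s_at on neither Seltzer 50-day array.

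CCI and the Seltzer injury were compared as the mean of 14 and 21 days, where sham arrays cancel. No member was called by limma, 1 had an unadjusted p under 0.05, and 0.927% of all probe sets were called in either direction. That member was Adcyap1 X80290cds_s_at, 0.79 higher after CCI (95% interval 0.13 to 1.45, unadjusted p = 0.0234, adjusted p = 0.426). The intervals of the other differences, CCI minus Seltzer, were -0.14 to 1.14 for Reg3b, -0.22 to 1.10 for Vip, -0.14 to 0.70 for Vgf, -0.61 to 0.12 for Adcyap1 M63006_at and -0.24 to 0.39 for rc_AI228407_s_at. The last of these hid opposite values at the single days, -0.47 at 14 days (adjusted p = 0.526) and 0.62 at 21 days (adjusted p = 0.328), neither called, in a split chosen after the values were seen.

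The CCI change at 21 days was set against that at 14 days, and limma called 0 members, with 0 at an unadjusted p under 0.05, against 1.8% of all probe sets called. The difference, 21 minus 14 days, was -0.06 for Vgf (95% interval -0.90 to 0.79), 0.22 for Reg3b (-1.06 to 1.5), 0.58 for Vip (-0.75 to 1.91) and 0.56 for Adcyap1 rc_AI228407_s_at (-0.08 to 1.19). The F test of the Seltzer change over 14, 21 and 50 days called 0 members, against 6.13% of all probe sets, with 3 at an unadjusted p under 0.05. These were Adcyap1 M63006_at (adjusted p = 0.108), Vgf (adjusted p = 0.111) and rc_AI228407_s_at (adjusted p = 0.214). With the replicate number as a block, 2 members were called in this F test, Vgf and M63006_at. Over the sham days 0 members were called, against 8.48%, and 2 had an unadjusted p under 0.05.

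Of the receptors of these peptides, 6 of 8 listed genes were measured, and 0 were called in either mean contrast. Adcyap1r1, the PACAP receptor, had a Seltzer mean change of -1.37 (adjusted p = 0.199) and a CCI mean change of -0.63 (adjusted p = 0.809). It was above background on no array, nor were the Vip receptors Vipr1 and Vipr2, the cholecystokinin receptor Cckbr, or C3ar1, a receptor for a Vgf peptide. The list's median was 0.09 in the CCI mean, where that of all probe sets was 0, and 0.21 in the Seltzer mean, where it was 0.03.

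Of the genes that cut, amidate and pack peptides in dense-core vesicles, 11 of 14 were measured, with a median change of -0.25 in the CCI mean and -0.29 in the Seltzer mean. None was called in the CCI mean, and 3 fell in the Seltzer mean. They were Scg5, a chaperone of the processing enzyme PC2, by 0.47 (adjusted p = 0.0240), Cadps, which primes dense-core vesicles for release, by 0.42 (adjusted p = 0.0403), and Ptprn, a vesicle membrane protein, by 1.26 (adjusted p = 0.0314). In that mean 2.46% of all probe sets were called lower. At 50 days, where 7.2% were, 6 of the 11 fell, these 3 among them. The days differed in sign for Ptprn (-0.02, 0.52 and -4.28 at 14, 21 and 50 days, its 50-day Seltzer mean being -774 before values below 0 were set to 0) and for Scg5 (0.37, -0.86 and -0.93). Chgb, a granin stored with the peptides, fell by 1.14 after CCI at 14 days (adjusted p = 0.0404).

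Of the leukaemia inhibitory factor, gp130 and STAT3 genes, 12 of 14 were measured and 0 were called in either mean, with medians of -0.03 after CCI and 0.33 after the Seltzer injury. Stat3 was at 0.80 after CCI (adjusted p = 0.458) and 0.77 after the Seltzer injury (adjusted p = 0.235), above background on no array. Of the neurotrophins and their receptors, 5 of 7 were measured and 0 were called in either mean. All 13 genes listed for cyclic AMP and CREB signalling were measured, and 1 was called in a mean contrast, the adenylyl cyclase Adcy2, higher in the Seltzer mean (0.60, adjusted p = 0.0236). At 50 days Adcy2 was called higher (1.18) and the protein kinase A subunits Prkaca and Prkacb lower (-0.69 and -1.60), and at no other single day was a gene of this list called. Creb1 was above background on no array.

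Of the other neuropeptides, 13 of 16 were measured. Npy and Gal, both known to rise in injured sensory neurons, were called higher in both means, Npy by 6.04 and Gal by 4.48 after CCI and by 4.26 and 2.73 after the Seltzer injury. Sham group means were 1.69 to 35.5 for Npy and 42.9 to 68.9 for Gal, under the background levels of all arrays, so the sizes of these log2 changes depend on the 16 added and no fold is given. Sst, the somatostatin of resting nociceptors, fell by 1.81 in the Seltzer mean (adjusted p = 0.0352). Its Seltzer change was -0.32 at 14 days, -0.25 at 21 days and -4.87 at 50 days, the single day at which it was called. The Seltzer mean of Sst at 50 days was 7.72 ± 253 SD, under the background levels of both arrays. The size of the 50-day change therefore also depends on the 16 added. After CCI, Sst means were 281 ± 46.1 against 861 ± 97.4 in sham at 14 days, and 157 ± 72.6 against 587 ± 59.4 at 21 days. Sst was not called at either of these days or in the CCI mean. The list's median was -0.11 after CCI and 0.12 after the Seltzer injury.

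By Pearson correlation of log2 values over the 20 arrays, among 1501 genes above background on at least 3 arrays, the pattern most like that of Vgf belonged to Gal (r = 0.893), Atf3 (0.846), Gap43 (0.844) and Camk2d (0.826). Without the Seltzer 50-day arrays these were 0.910, 0.869, 0.866 and 0.888. For Adcyap1, represented by M63006_at, its probe set with the highest mean, they were Sec61b (0.711), Oat (0.692), Cmtm6 (0.673) and the muscle actin Acta1 (0.664). All arrays share the same groups, so these are descriptions with no test. Vip, Reg3b and Cck were too dim to enter.

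Of the 14 sensory neuron markers measured, the nociceptor sodium channels Scn10a and Scn11a were called lower after CCI at 14 days and in the CCI mean, where the list's median was -0.05. At 50 days after the Seltzer injury 5 were called lower (Scn11a, Prph, P2rx3, Isl1 and Uchl1, list median -0.68), and in the Seltzer mean 3 were (Scn11a, P2rx3 and Elavl4, median -0.23). None of the 14 was called higher in any contrast against sham. Their part in the members' changes was not tested.

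Markers of other cells moved with surgery in some lists. The summed intensity of 8 of 10 macrophage markers was 2372 to 3349 on the CCI arrays and 1810 to 2884 on the Seltzer arrays of 14 and 21 days, against 1111 to 1926 on their sham arrays, and at 50 days it was 1712 to 1976 against 1015 to 1322. The CCI sum was mostly Lyz2, with means of 2227 at 14 days and 2224 at 21 days against 1136 and 828 in sham. At 50 days Lyz2 means were 521 after the Seltzer injury and 528 in sham, and Cd14 was called higher (703 against 282). The Cd14 mean was lower after CCI at 14 days (201 against 273). This list's median was 0.21 in the CCI mean and 0.31 in the Seltzer mean, against 0 and 0.03 for all probe sets. Of these markers Ctss was called higher in both means and Lyz2 in the CCI mean, and 5 (Aif1, Csf1r, Itgam, Ptprc and Fcgr2b) were above background on no array. Their part in the members' changes was not tested. The sum of 8 of 10 skeletal muscle markers was higher after CCI than sham at 14 days (10912 to 12334 against 4766 to 5565) and lower at 21 days (1091 to 1849 against 4779 to 5222). At 50 days, where Vip and Adcyap1 M63006_at were called, the muscle sum was 3502 to 4509 after the Seltzer injury against 746 to 1067 in sham, and 5 of the 8 muscle genes were called higher (median 2.37). The part of muscle RNA in the members' changes was not tested at any day. Of 6 pancreatic acinar markers, a list included because Reg3b is a pancreatic secretory protein, 5 were above background on no array and none was called in either mean. Measured markers of T cells, mast cells and fat were above background on no array, as Vip and Reg3b were not. At 50 days after the Seltzer injury the T cell genes Cd3g and Cd5 and the fat gene Lpl were nevertheless called higher, and the T cell sum was 636 to 1010 against 169 to 208 in sham.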

How the data were processed

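The authors deposited linear intensity values, 1 column per sample. How these were scaled and background-corrected, and with which software, is not given in the sources used here. Negative values were replaced by 0, and log2(value + 16) was analysed. With limma 3.58.1 in R 4.3.3 (statmod 1.5.0), 1 mean per group was fitted for all 8 groups together, which left 12 residual degrees of freedom. Tests were two-sided, Benjamini-Hochberg adjustment ran over all 8740 non-control probe sets, and the threshold was 0.05. The 615 probe sets at 0 on all arrays after this step entered that fit. The fit was tested on simulated data. Python 3.11.15 with matplotlib 3.10.9 drew the figures.

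The platform annotation supplied symbols, brought up to date through Entrez IDs. Of the probe sets tested, 7006 had 1 symbol, 308 several and 1426 none. In gene lists a gene with several probe sets was read from the one of highest mean. All probe sets of the 5 genes are named, with up to 4 genes of a list (those called in a mean contrast or with the largest change) and the 4 genes of most similar pattern. Creb1, Prkaca, Prkacb, Stat3, Reg1a, Reg3a, Reg3g, Chgb, marker genes, the other receptors and the genes sharing the complete separation were named after their values were seen. The members and lists were chosen with earlier results of these data known, and lists are described by counts and medians only.

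The number of arrays limits the precision. Samples were grouped by title and description, where 3 titles spell the constriction model with a digit and the descriptions settle it. For 3 CCI arrays the labels call the replicate number a lot batch and do not say of what. Deviations from group means correlated at 0.299, 0.226 and 0.110 between same-numbered Seltzer and sham arrays at 21 days, which pairs these arrays by measured values rather than by the labels. In no other comparison with 3 numbers was every pair over 0.1. Same-numbered Seltzer and sham arrays at 14 days correlated at 0.05. Alternatives were a pseudocount of 1 or 64, a floor at 200, quantile normalization, median centring, the dimmest probe sets left out, the groups compared alone, the replicate block, trend and robust settings, array weights, all sham arrays as 1 control, the Seltzer 50-day arrays left out, each array left out in turn, and the 90th percentile as background level.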

Additional observations from a re-analysis of the deposited data

How the results depend on the processing

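Over 34 settings, 929 of 1056 recomputed single changes kept their direction and their side of the threshold, and 25, none of them called, changed sign. In the CCI mean Vgf and Adcyap1 rc_AI228407_s_at kept their call in 23 of 23 alternatives and Vip in 22 of 22, and rc_AI228407_s_at in the Seltzer mean in 26 of 26. Calls of members moved as follows, the cause not tested. At CCI 14 days (3 called) it was 5 with only the groups compared and 5 with array weights, and 0 to 2 with 1 array left out. At CCI 21 days (4 called) it was 2 with a pseudocount of 1, 2 with quantile normalization, 2 with median centring, 0 with only the groups compared and 2 to 4 with 1 array left out. In the CCI mean it was 4 to 5 with 1 array left out. At Seltzer 14 days (1 called) it was 0 with median centring, 0 without the dimmest probe sets, 0 with only the groups compared, 3 with array weights and 0 to 1 with 1 array left out. At Seltzer 21 days (0 called) it was 1 with quantile normalization, 1 with array weights and 0 to 1 with 1 array left out. At Seltzer 50 days (2 called) it was 1 with a pseudocount of 1, 1 with a floor at 200, 1 with quantile normalization, 1 with median centring, 0 with only the groups compared, 1 with all sham arrays as 1 control and 0 to 1 with 1 array left out. In the Seltzer mean (5 called) it was 3 with a floor at 200, 3 with quantile normalization, 2 with median centring, 3 with only the groups compared, 2 without the Seltzer 50-day arrays and 2 to 5 with 1 array left out. A floor at 200 called 1 member in CCI against Seltzer and 1 in the Seltzer F test, where array weights called 1. In the sham F test array weights called 2 and leaving out the Seltzer 50-day arrays 1, and leaving out 1 array called 0 to 1 in both F tests.

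With the replicate number as a block, 2 members were called at Seltzer 14 days (Vgf, adjusted p = 0.0311, with rc_AI228407_s_at) and 2 in the Seltzer F test (Vgf and M63006_at), and the block changed no other count of members. It turned the CCI 21 minus 14 day difference of Vgf to 0.10.

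Signs turned only among uncalled changes. With all sham arrays as 1 control, Adcyap1 M63006_at was at 0.12 at CCI 21 days and 0.16 at Seltzer 21 days, and at Seltzer 50 days Vgf was at 0.094 and X80290cds_s_at at 0.34, the last 0.0092 with a floor at 200. With 1 array left out, M63006_at ran from -0.29 to 0.062 at CCI 21 days and -0.24 to 0.081 at Seltzer 21 days, X80290cds_s_at from -0.10 to 0.83 at Seltzer 21 days and -0.36 to 0.11 at 50 days, Vgf from -0.22 to 0.015 at Seltzer 50 days, and rc_AI228407_s_at from -0.045 to 0.14 in CCI minus Seltzer, which was -0.47 at 14 days alone. For CCI at 21 minus 14 days, array weights gave 0.12 for Vgf, -0.060 for Reg3b, -0.0018 for Vip and -0.013 for X80290cds_s_at, quantile normalization gave -0.22 and median centring -0.070 for Reg3b, a floor at 200 gave -0.042 for rc_AI228407_s_at, and leaving out 1 array gave -0.28 to 0.25 for Vgf and -0.39 to 0.61 for Reg3b. Median centring shifted the median of all probe sets by 0.12 at CCI 14 days, -0.17 at CCI 21 days, -0.34 at Seltzer 50 days and -0.26 in CCI at 21 minus 14 days, and with quantile normalization 451 probe sets were called higher and 790 lower at Seltzer 50 days (431 and 775 with median centring), against 762 and 629, and 129 higher and 308 lower in the Seltzer mean, against 168 and 215. A floor at 200 left no value for Vip and Reg3b. With the 90th percentile as background level the fold of rc_AI228407_s_at at CCI 21 days was at least 2.62, and that of X80290cds_s_at in the CCI mean at least 2.50. At that level Reg3b was above background on CCI 14-day replicates 1, 2 and 3, CCI 21-day replicates 2 and 3 and Seltzer 14-day replicate 2. Vip stayed below it on every array. Values near background limit what can be read for Vip, Reg3b and Cck, and an array left alone in its group was taken to vary as the other groups do.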
